A study of Mus musculus with 18 samples.

Results

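TCDD and benzo[a]pyrene (BaP), both ligands of the aryl hydrocarbon receptor (AHR), were compared directly in wild-type Hepa-1c1c7 cells on 6 of the 18 expression arrays of the series, the 3 arrays of each ligand in this line. Hepa-1c1c7 is a mouse hepatoma line, whose strain the labels give as C57BL/6 derived, and the wild-type groups carry its own AHR. The study set these cells against *c*35 cells, a mutant derivative whose AHR cannot bind DNA, and against naive cells of each line, which received the DMSO vehicle. All exposures lasted 8 hr, and each of the 6 groups had 3 arrays, described by the study as biological replicates. BaP was given at 5 µM. The labels of the wild-type TCDD arrays give no dose; the study's methods and the labels of the *c*35 TCDD arrays give 5 nM. The doses therefore differed between the ligands, and a difference between the compounds and a difference between their doses cannot be told apart in any value below.

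The AHR is a ligand-activated transcription factor of the cytosol that moves to the nucleus, pairs with ARNT and binds DNA at xenobiotic response elements. It is best known in liver cells for inducing the cytochrome P450 enzymes of the CYP1 family and a battery of oxidoreductases. TCDD is a chlorinated dioxin that is hardly metabolized, whereas BaP is a polycyclic aromatic hydrocarbon that the induced enzymes convert to reactive metabolites, including DNA-binding epoxides and redox-cycling quinones.

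The unit throughout is the deposited log2 signal of a probe set, a group of short probes for 1 transcript, and every difference is TCDD minus BaP, so that a negative value means a higher signal with BaP. To be called, a probe set had to pass an adjusted p of 0.05 in limma and change by more than 1.5-fold. Of 45037 probe sets, 107 (0.238%) were called, 51 (0.113%) higher with TCDD and 56 (0.124%) higher with BaP. They named 36 genes higher with TCDD (0.198% of 18193 genes tested) and 33 higher with BaP (0.181%). When each gene was read from its brightest probe set alone, 25 genes were higher with TCDD (0.137%) and 22 were higher with BaP (0.121%). The differences of these 47 genes ranged from 1.5- to 1.86-fold where TCDD was higher and from 1.5- to 2.46-fold where BaP was higher, and the TCDD and BaP arrays did not overlap for any of them, where the arrays of 25.4% of all genes did not overlap. A test against 1.5-fold itself left 1 gene, *Hmox1*, and averaging all probe sets of a gene before the fit left 11 genes higher with TCDD and 20 higher with BaP. The same comparison in *c*35 cells called 0 probe sets (limma, lowest adjusted p 1; 1168 probe sets, or 2.59%, at an unadjusted p below 0.05, against 6118, or 13.6%, in wild-type cells).

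The 6 arrays were alike in correlation, from 0.9951 to 0.99718 between them. They were alike in spread around the group mean, at 0.117 to 0.128 for TCDD and 0.111 to 0.125 for BaP. Of the hepatocyte markers, *Alb* was at 13.43 with TCDD and 13.51 with BaP and *Afp* at 12.2 and 12.25, whereas the regulator *Hnf4a* was at 6.31 and 6.28. The other hepatocyte markers were also far below *Alb*, with *Apoa2* at 7.8 and 7.77, *Ttr* at 6.78 and 6.85 and *Apoa1* at 5.96 and 5.71. The leukocyte marker Ptprc was at 3.19 and 3.03 and the endothelial marker Pecam1 at 4.29 and 4.21, although Csf1r (10.76 and 10.77) and *Col3a1* (11.77 with both), which mark macrophages and fibroblasts, were well above them. So were the macrophage marker *Cd14* (9.64 and 9.8) and the fibroblast markers *Col1a1* (10.42 and 10.72) and *Pdgfrb* (10.36 and 10.45). The bile duct marker *Krt7* was at 10.89 and 10.8. No measured marker of hepatocytes (6 genes), leukocytes (8), endothelium (6), fibroblasts (7) or bile duct (4) was called. In a bulk extract, fewer cells that express a gene and less of its RNA per cell cannot be told apart.

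**Figure D1:**
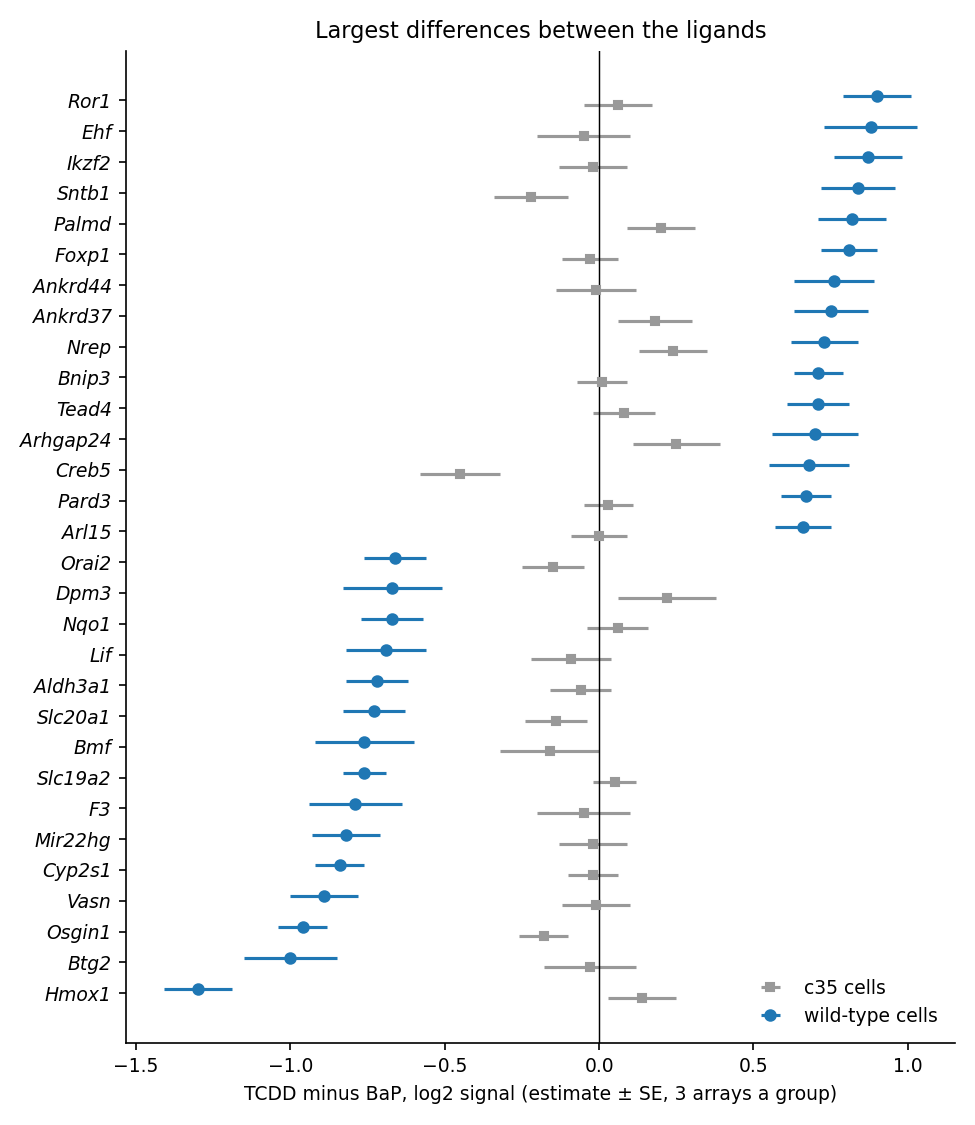
Difference between the ligands (TCDD minus BaP, log2 signal, x axis) for the 15 genes with the largest difference in each direction, as estimate ± SE with 3 arrays a group, in wild-type cells (blue circles) and in *c*35 cells (grey squares). The wild-type values run from -1.30 for *Hmox1* to 0.90 for *Ror1*, and the *c*35 values lie between -0.45 and 0.25.

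The promoters of 5 genes described below are shown because they carry letters that AHR, NRF2 or hypoxia-inducible factors are known to recognize, or lack them. Each RefSeq window (GRCm38.p6) runs from 250 bases before to 50 bases after a transcript's start, 300 bases in all, 5′ to 3′ on the gene's strand. The first 3 genes were higher with BaP, and capitals mark GCGTG, the core of a xenobiotic response element, read on both strands (CACGC on the other). TGACNNNGC, the core of an antioxidant response element bound by NRF2, was searched on both strands too and is not in these 3 windows. *Osgin1* (chr8:119436897-119437196, plus strand) and *Btg2* (chr1:134079106-134079405, minus strand) held 1 GCGTG each and *Slc19a2* (chr1:164248796-164249095, plus strand) held 5.
*Osgin1*: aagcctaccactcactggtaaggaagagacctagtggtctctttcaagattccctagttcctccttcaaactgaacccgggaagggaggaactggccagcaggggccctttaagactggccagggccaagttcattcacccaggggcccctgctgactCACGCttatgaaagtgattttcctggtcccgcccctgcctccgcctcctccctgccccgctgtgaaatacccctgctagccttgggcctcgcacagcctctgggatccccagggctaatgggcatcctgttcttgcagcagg
*Btg2*: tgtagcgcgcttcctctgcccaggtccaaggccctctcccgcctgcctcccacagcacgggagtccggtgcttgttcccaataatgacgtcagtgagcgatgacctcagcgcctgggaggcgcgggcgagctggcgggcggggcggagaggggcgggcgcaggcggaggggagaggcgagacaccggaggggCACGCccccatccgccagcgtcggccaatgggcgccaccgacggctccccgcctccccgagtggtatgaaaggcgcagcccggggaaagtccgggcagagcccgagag
*Slc19a2*: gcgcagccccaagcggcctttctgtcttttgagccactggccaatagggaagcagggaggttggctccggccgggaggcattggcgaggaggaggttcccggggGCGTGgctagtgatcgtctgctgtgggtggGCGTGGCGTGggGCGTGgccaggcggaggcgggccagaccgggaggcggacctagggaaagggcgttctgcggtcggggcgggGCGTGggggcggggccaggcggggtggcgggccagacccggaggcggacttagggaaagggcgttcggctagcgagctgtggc
The other two, *Bnip3* (chr7:138909457-138909756, minus strand) and *Ankrd37* (chr8:45999801-46000100, minus strand), were higher with TCDD, and capitals mark ACGTG, the core of a hypoxia response element, read on both strands (CACGT on the other). In *Bnip3* the match on each strand overlaps that on the other in a single stretch, and in *Ankrd37* there are 2 separate matches. GCGTG is not capitalized in these windows but occurs in both, 3 times in *Bnip3* and 2 times in *Ankrd37*, counted on both strands.
*Bnip3*: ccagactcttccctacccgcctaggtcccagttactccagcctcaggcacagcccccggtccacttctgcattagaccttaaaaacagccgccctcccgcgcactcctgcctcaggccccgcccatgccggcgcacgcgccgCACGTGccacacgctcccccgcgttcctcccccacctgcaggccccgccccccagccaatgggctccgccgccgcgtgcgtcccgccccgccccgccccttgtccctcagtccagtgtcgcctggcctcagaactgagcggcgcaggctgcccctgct
*Ankrd37*: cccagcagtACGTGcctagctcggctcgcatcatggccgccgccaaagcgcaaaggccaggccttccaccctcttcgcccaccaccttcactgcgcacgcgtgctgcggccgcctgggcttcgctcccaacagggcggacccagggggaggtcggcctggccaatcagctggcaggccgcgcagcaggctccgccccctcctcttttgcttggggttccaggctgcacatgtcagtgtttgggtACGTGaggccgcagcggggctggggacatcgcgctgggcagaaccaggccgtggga
Of the 18193 genes, 14452 had a window, and 47.8% of these held GCGTG, 16.2% TGACNNNGC and 26.1% ACGTG in at least 1 of their windows. Of the 22 genes higher with BaP, 19 had a window, of which 9 (47.4%) held GCGTG, 6 (31.6%) TGACNNNGC and 7 (36.8%) ACGTG. Of the 25 genes higher with TCDD, 14 had a window, of which 12 (85.7%) held GCGTG, 0 TGACNNNGC and 6 (42.9%) ACGTG. These shares describe letters in a window and are not binding sites. Bases outside the windows were not searched, and *Hmox1* had no window.

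Of the 9 measured members of the AHR gene battery, 3 were called higher with BaP (0.121% of all genes were) and 0 higher with TCDD (0.137%). The median difference was -0.41, against 0.01 over all genes. *Cyp2s1*, a P450 outside the CYP1 family, read 9.14, 9.13 and 9.33 with TCDD and 10.13, 10.01 and 9.99 with BaP, against 7.88, 7.99 and 7.98 in naive cells. Each BaP array was above each TCDD array, and each TCDD array was above each naive array. The difference was -0.84 ± 0.08 (SE), or 1.79-fold (limma adjusted p = 1.28e-05). *Aldh3a1*, an aldehyde dehydrogenase, read 8.84, 8.93 and 8.98 with TCDD and 9.73, 9.56 and 9.62 with BaP, a difference of -0.72 ± 0.10 (adjusted p = 0.000855). *Nqo1*, the quinone reductase, read 10.51, 10.71 and 10.69 with TCDD and 11.36, 11.33 and 11.24 with BaP, a difference of -0.67 ± 0.10 (adjusted p = 0.00111). Both had the order of *Cyp2s1*, with naive cells at 7.48 to 7.54 for *Aldh3a1* and 9.17 to 9.24 for *Nqo1*. *Bmf*, a BH3-only member of the BCL2 family that is outside this list, moved in the same manner, at 6.06, 6.28 and 6.09 with TCDD, 7.03, 6.66 and 7.02 with BaP and 4.74 to 4.95 in naive cells (difference -0.76 ± 0.16, adjusted p = 0.0177). The *Bmf* call was lost with the mean of its 3 probe sets (-0.35) and when BaP replicate 1 or 3 or TCDD replicate 1 or 3 was left out, although the sign held.

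For *Cyp1a1*, the P450 by which AHR activation is usually read, the difference depended on which arrays set the spread. It read 13.06, 12.92 and 13.07 with TCDD and 13.44, 13.47 and 13.37 with BaP, against 9.61 to 9.81 in naive cells, so the ligand arrays did not overlap. The difference of -0.41 ± 0.67 had a 95% interval of -1.81 to 1 (limma adjusted p = 0.866) in the fit to all 18 arrays, where the *c*35 naive and *c*35 BaP arrays varied with SDs of 2 and 1.57, against 0.08 and 0.05 in the wild-type ligand groups. With only the 9 wild-type arrays, the adjusted p of *Cyp1a1* was 0.031, and with only the 6 arrays compared it was 0.00111. The change stayed under 1.5-fold, so *Cyp1a1* was not called in any of these fits. *Xdh*, xanthine dehydrogenase, behaved alike, at 9, 9.1 and 9.13 with TCDD and 9.62, 9.68 and 9.67 with BaP (-0.58, interval -0.91 to -0.25). Its adjusted p was 0.08 with 18 arrays and 0.00368 with the 9 wild-type arrays, and its change of 1.49-fold lay just under the limit.

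The other battery members gave no called difference, within the precision of 3 arrays a group. *Cyp1b1* differed by 0.05 (95% interval -0.39 to 0.49) and *Tiparp*, an ADP-ribosyltransferase that restrains AHR, by -0.17 (-0.67 to 0.33), although both ligands raised each of them. *Cyp1a2* differed by -0.14 (-0.41 to 0.13), and *Ahrr*, the AHR repressor, by -0.11 (-0.36 to 0.13), with *Ahrr* signals of 2.61 to 2.97 on the 6 arrays, at the low end of the scale. *Ahr* itself read 10.52, 10.53 and 10.57 with TCDD and 10.38, 10.3 and 10.25 with BaP (0.23, interval 0.07 to 0.39, adjusted p = 0.15), and its partner *Arnt* differed by 0 (-0.19 to 0.20). *Arnt2*, the related partner, differed by 0.18 (-0.07 to 0.43) and the chaperone *Hsp90aa1* by 0.07 (-0.12 to 0.26). Of 13 genes that the study names from these arrays, 4 passed the adjusted p, all higher with BaP, where 0.781% of all genes passed in that direction. The fourth, beside the 3 called battery members, was *Tnfaip2*, a TNF-induced gene, at 8.94, 8.93 and 8.82 with TCDD and 9.52, 9.42 and 9.44 with BaP (-0.56 ± 0.09, adjusted p = 0.0032, or 1.48-fold). The study chose these 13 on the same samples, so the list is not independent evidence. Beside *Cyp1a1* and *Xdh*, given above, the rest of the list ran from -0.17 for *Mgst2* (-0.54 to 0.20) through -0.16 for *Hspa4l* (-0.37 to 0.06) and -0.12 for *Adh7* (-0.43 to 0.19) to 0.14 for *Vegfc* (-0.01 to 0.29) and 0.26 for *Adh1* (0.03 to 0.49, adjusted p = 0.288). The study lists *Adh1* as a gene that only TCDD induced and *Mgst2* as one that only BaP induced. Neither was called in the direct comparison of the ligands.

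Antioxidant genes gave the largest difference of any gene read from its brightest probe set. *Hmox1*, heme oxygenase, which degrades heme and is induced by oxidative stress, read 8.6, 8.54 and 8.68 with TCDD and 10.02, 9.94 and 9.76 with BaP. Naive cells read 7.85, 8.37 and 8.44, so BaP stood apart from both other groups. The difference was -1.30 ± 0.11, or 2.46-fold (adjusted p = 2.61e-06). *Osgin1*, an oxidative stress-induced growth inhibitor, read 8.25, 8.15 and 8.33 with TCDD, 9.3, 9.24 and 9.07 with BaP and 7.64 to 7.8 in naive cells (-0.96 ± 0.08, adjusted p = 2.61e-06).

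Across the NRF2 antioxidant targets, 8 of 28 measured genes passed the adjusted p higher with BaP and 0 higher with TCDD, where 0.781% and 0.885% of all genes passed in these directions. *Hmox1*, *Osgin1* and *Nqo1* were called, and the other 5 were under 1.5-fold. These were *Srxn1*, sulfiredoxin (-0.49, adjusted p = 0.000744), *Gclm*, the modifier subunit of the first enzyme of glutathione synthesis (-0.46, 0.0123), *Txnrd1*, thioredoxin reductase (-0.36, 0.0463), *Abcc4*, an efflux transporter (-0.34, 0.0123), and *Pgd*, an enzyme of the pentose phosphate pathway (-0.31). The median of the list was -0.19 and 20 of 28 genes were below 0. *Slc7a11*, the cystine transporter, gave the largest difference of any probe set with 1 gene name, on a dimmer probe set that read 6.28, 6.76 and 6.83 with TCDD and 7.89, 8.21 and 7.97 with BaP (-1.40 ± 0.16, adjusted p = 0.000116). Its brightest probe set differed by -0.55 (adjusted p = 0.0986) and was not called, and *Slc7a11* was singled out after its values were seen.

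**Figure D2:**
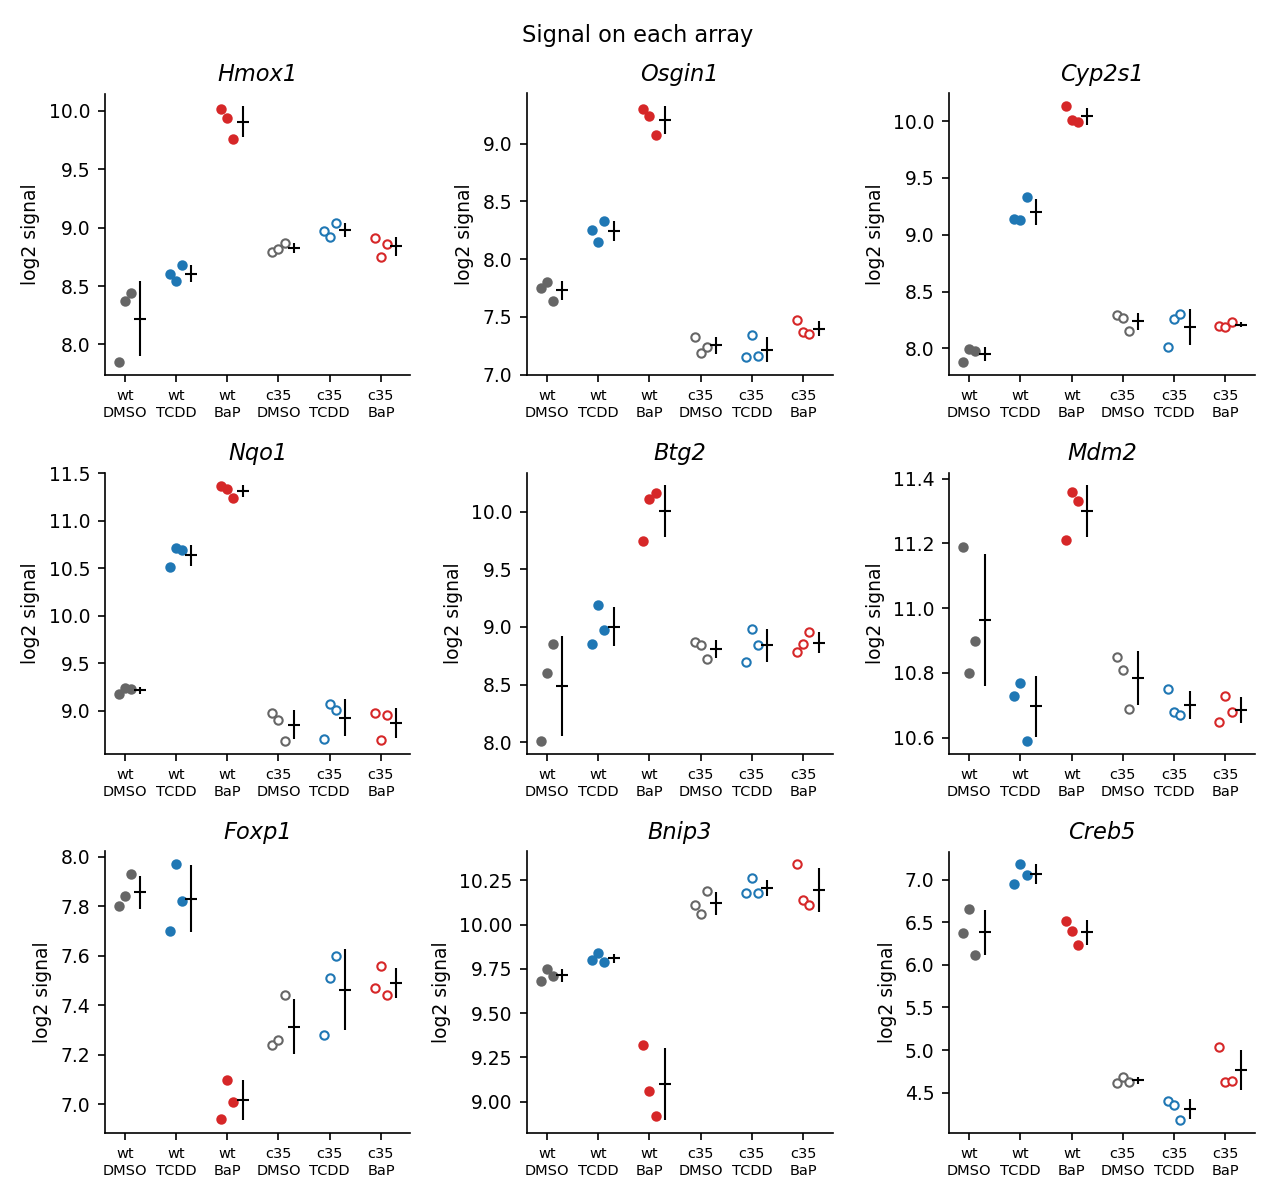
Log2 signal (y axis) on each of the 18 arrays for 9 genes, by line and treatment (x axis; filled, wild-type; open, *c*35), with the group mean ± SD (n = 3) beside the points as a black bar. In the first 6 genes the wild-type BaP arrays lie above the wild-type TCDD arrays, and in *Foxp1*, *Bnip3* and *Creb5* below them.

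Of 33 measured targets of p53, the transcription factor that DNA damage activates, 12 passed the adjusted p higher with BaP (0.781% of all genes did) and 0 higher with TCDD (0.885%), 3 of the 12 were called and 21 did not pass. The median was -0.26, with 27 of the 33 below 0, as were 8570 of all 18193 genes. *Btg2*, an antiproliferative target, read 8.85, 9.19 and 8.97 with TCDD and 9.75, 10.11 and 10.16 with BaP, against 8.01, 8.6 and 8.85 in naive cells. All 3 BaP arrays were above all others, and the difference was -1 ± 0.15, or 2.01-fold (adjusted p = 0.00165). *Trp53inp1*, a p53-induced nuclear protein, read 11.07, 11.09 and 11.19 with TCDD and 11.74, 11.82 and 11.67 with BaP (-0.63 ± 0.07, adjusted p = 5.66e-05). *Mdm2*, the ubiquitin ligase that degrades p53, read 10.73, 10.77 and 10.59 with TCDD and 11.21, 11.36 and 11.33 with BaP (-0.60 ± 0.08, adjusted p = 0.000711). Naive cells lay between them for *Mdm2*, at 10.8 to 11.19, and the call was lost without BaP replicate 2 or TCDD replicate 3, and with probe sets averaged (-0.47), as was that of *Trp53inp1* (-0.34).

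The other p53 targets past the adjusted p were under 1.5-fold. They included *Eda2r*, a member of the TNF receptor family (-0.57, adjusted p = 0.00192), *Plk3*, a stress-responsive kinase (-0.51, 0.00556), *Ercc5*, a nuclease of nucleotide excision repair (-0.49, 0.00617), *Pmaip1*, the BH3-only protein Noxa (-0.47, 0.00556), and *Cdkn1a*, the CDK inhibitor p21 (-0.33, 0.00704). *Cdkn1a* was bright with both ligands, at 12.38, 12.43 and 12.4 with TCDD and 12.79, 12.7 and 12.71 with BaP. Not every growth arrest gene was higher with BaP. *Gadd45g* was called, at 7.16, 7.09 and 6.92 with TCDD and 7.79, 7.52 and 7.71 with BaP (-0.62 ± 0.12, adjusted p = 0.0108), a call lost without BaP replicate 1 or 3 or TCDD replicate 3. *Gadd45a* differed by -0.04 (-0.23 to 0.15), with both ligands at 7.22 to 7.46 against 7.93 to 8.06 in naive cells. Of the 28 mitosis and spindle genes, 0 were below 0, where 8570 of all 18193 genes were. Their differences ran from 0.01 to 0.32, with a median of 0.10. Among them, 3 passed the adjusted p higher with TCDD (0.885% of all genes did), none at 1.5-fold. These were *Ccna2*, cyclin A (0.32, 0.0093), and the mitotic kinases *Aurka* (0.30, 0.0177) and *Plk1* (0.25, 0.0482). Of 28 DNA replication genes 0 passed, with a median of 0.07 and 5 genes below 0.

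**Figure D3:**
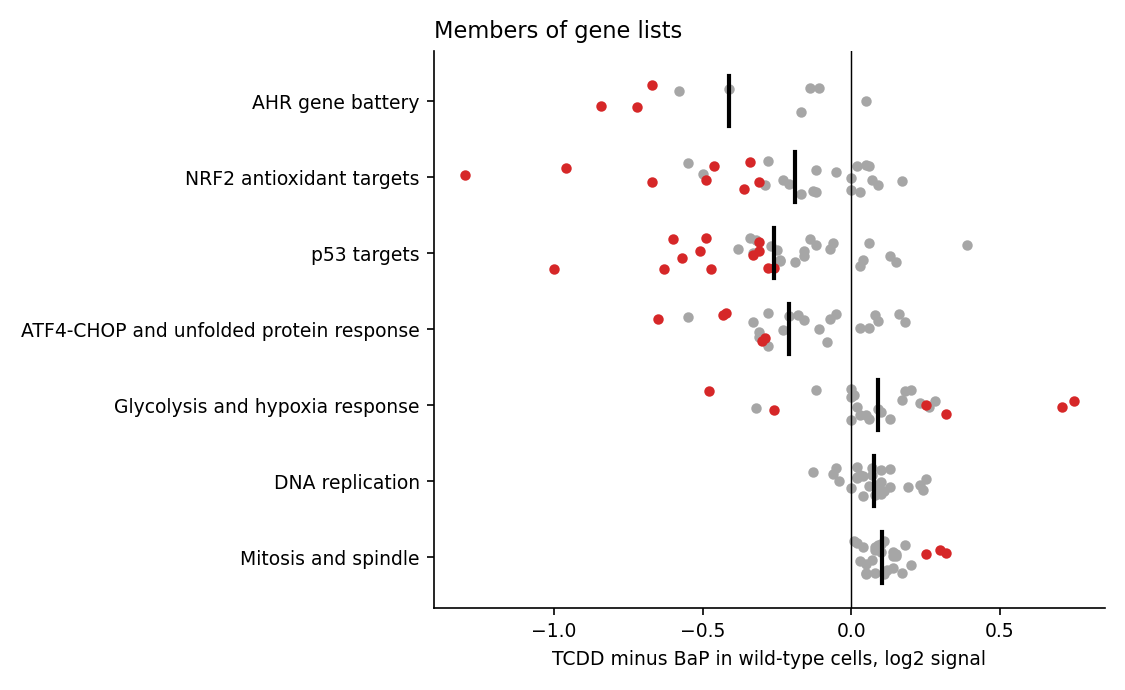
Difference between the ligands in wild-type cells (TCDD minus BaP, log2 signal, x axis) for each measured member of 7 gene lists, each point 1 gene, red where the adjusted p was below 0.05, with the list's median as a black bar; the vertical scatter within a list has no meaning. The medians run from -0.41 for the AHR battery and -0.26 for p53 targets to 0.10 for mitosis genes.

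Of the other genes higher with BaP, *Slc19a2*, a thiamine transporter, read 10.76, 10.65 and 10.73 with TCDD and 11.57, 11.44 and 11.41 with BaP (-0.76 ± 0.07, adjusted p = 2.61e-06), with naive cells at 10.77 to 10.89, next to TCDD. The phosphate transporter *Slc20a1* (-0.73, 0.000525) and the calcium channel subunit *Orai2* (-0.66, 0.00251) likewise had naive cells near TCDD. *Vasn*, a membrane protein that binds TGF-beta, read 7.99, 7.8 and 7.63 with TCDD and 8.69, 8.78 and 8.61 with BaP (-0.89 ± 0.11, adjusted p = 0.00022). *Mir22hg*, the host transcript of miR-22, differed by -0.82 ± 0.11 (0.000489), *F3*, tissue factor, by -0.79 ± 0.15 (0.0124), and the cytokine *Lif* by -0.69 ± 0.13 (0.00834). With probe sets averaged, the calls of *Slc20a1* (-0.51), *Orai2* (-0.58) and *Lif* (-0.32) were lost. *Dpm3*, a subunit of dolichol-phosphate mannose synthase (-0.67, 0.0399), and *F3* lost their calls when single arrays were left out, *Dpm3* without BaP replicate 1 or 3 or any TCDD array (and with no intensity trend, with the replicate number as a block, and with only the 9 wild-type arrays or the 6 arrays compared), and *F3* without BaP replicate 1 or 2 or TCDD replicate 1.

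Of 25 genes of the unfolded protein response and its ATF4-CHOP arm, 5 passed the adjusted p higher with BaP (0.781% of all genes did) and 0 higher with TCDD (0.885%), and the median was -0.21. *Dnajb9*, a chaperone partner of the endoplasmic reticulum, was called at 8.49, 8.26 and 8.21 with TCDD and 9.1, 8.98 and 8.82 with BaP (-0.65 ± 0.16, adjusted p = 0.0434), a call that leaving out any 1 of the 6 arrays ended. *Ppp1r15a*, the GADD34 phosphatase subunit (-0.43, 0.00322), *Slc3a2*, an amino acid transporter heavy chain (-0.42, 0.00242), and *Hspa5*, the chaperone BiP (-0.30, 0.0399), were under 1.5-fold. The list of immediate early factors had 2 of 24 genes past the adjusted p, *Fosl1* (-0.49, 0.00111) and *Ier5* (-0.28, 0.0373). Both were higher with BaP (0.781% of all genes passed so), and the median of the list was -0.12, with 17 genes below 0. *Atf3*, a stress-induced factor, was not among them (0.03, -0.18 to 0.24).

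The genes higher with TCDD held several transcription factors. *Foxp1*, a forkhead repressor, read 7.7, 7.97 and 7.82 with TCDD and 6.94, 7.1 and 7.01 with BaP, against 7.8 to 7.93 in naive cells. The TCDD and naive arrays overlapped and the BaP arrays lay below both, with a difference of 0.81 ± 0.09, or 1.76-fold (adjusted p = 0.000122). All 8 probe sets of *Foxp1* had the same sign and 3 were called, but their mean differed by 0.49 and was not called. *Ikzf2*, the zinc finger factor Helios, read 7.4, 7.21 and 7.05 with TCDD and 6.34, 6.51 and 6.19 with BaP (0.87 ± 0.11, adjusted p = 0.000495). *Ehf*, an epithelial ETS factor, read 5.27, 5.01 and 5.16 with TCDD and 4.13, 4.3 and 4.37 with BaP (0.88 ± 0.15, 0.00612). The BaP signals of *Ehf* were toward the low end of the scale. *Ikzf2* and *Ehf* both had naive arrays in or above the TCDD range, apart from 1 naive array of *Ehf* at 4.9. *Tead4*, the DNA-binding partner of the Hippo pathway's YAP, differed by 0.71 ± 0.10 (0.00117). Averaging probe sets also ended the calls of *Ikzf2* (0.34, 2 of 3 probe sets of that sign), *Ehf* (0.31, 3 of 4) and *Tead4* (0.35, 1 of 2). The Hippo targets *Ccn2* (-0.41, 0.00971) and *Ccn1* (-0.34, 0.0487) differed the other way from *Tead4*.

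Of 34 measured nuclear receptors and coregulators, 2 were called higher with TCDD, where 0.137% of all genes were, and both calls were lost when single arrays were left out. *Esr1*, estrogen receptor alpha, read 8.25, 8.27 and 8.32 with TCDD and 7.87, 7.52 and 7.69 with BaP (0.59 ± 0.10, adjusted p = 0.00636), at 1.5-fold, and it lost the call without BaP replicate 2 or 3 or TCDD replicate 3 and after median centring. *Nr3c2*, the mineralocorticoid receptor, differed by 0.60 ± 0.14 (0.0373), a call lost without BaP replicate 2 or 3 or TCDD replicate 1 or 3, with no intensity trend, and with only the 9 wild-type arrays or the 6 arrays compared. *Creb5*, a CRE-binding factor, was the 1 gene of those called between the ligands that was also called against naive cells with TCDD alone. It read 6.95, 7.18 and 7.06 with TCDD, 6.52, 6.4 and 6.23 with BaP and 6.37, 6.65 and 6.12 in naive cells, so the BaP and naive arrays overlapped. The difference was 0.68 ± 0.13 (adjusted p = 0.0118), and the call was lost without BaP replicate 2 or 3 or TCDD replicate 2, and with the mean of its 4 probe sets (0.35). That mean ended the *Esr1* call too (0.39).

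*Ror1*, a receptor tyrosine kinase for WNT5A, gave the largest difference of the genes higher with TCDD. It read 8.19, 8.26 and 8.35 with TCDD and 7.3, 7.44 and 7.37 with BaP, against 8.58 to 8.7 in naive cells. The 3 groups did not overlap, and BaP was lowest, with a difference of 0.90 ± 0.11, or 1.86-fold (adjusted p = 0.00022). Of its 3 probe sets, 2 had that sign, and their mean of 0.32 was not called. Of the 32 measured WNT pathway genes, 3 passed the adjusted p higher with TCDD (0.885% of all genes did). These were *Ror1*, *Axin2* (0.41, 0.00296) and *Tcf7l2* (0.41, 0.0337). The receptors *Fzd6* (-0.32, 0.0164) and *Fzd8* (-0.44, 0.032) passed higher with BaP (0.781% of all genes did). The median of the list was -0.03, with 17 genes below 0. *Sntb1*, a syntrophin of the dystrophin complex, read 7.07, 7.35 and 7.1 with TCDD and 6.46, 6.34 and 6.21 with BaP (0.84 ± 0.12, 0.00111), and *Pard3*, a cell polarity scaffold of tight junctions, read 7.89, 7.81 and 7.94 against 7.22, 7.12 and 7.3 (0.67 ± 0.08, 0.000337). *Palmd*, palmdelphin (0.82, 0.000547), *Ankrd44* (0.76, 0.00474), *Nrep* (0.73, 0.00143), *Arhgap24*, a Rac GTPase-activating protein (0.70, 0.0182), and *Arl15*, an ARF-like GTPase (0.66, 0.000701), completed the 15 with the largest differences together with the 2 hypoxia-responsive genes below. With probe sets averaged, the calls of *Sntb1* (0.39), *Pard3* (0.35), *Ankrd44* (0.36) and *Arhgap24* (0.35) were lost. The *Arhgap24* call was also lost without any 1 of the BaP arrays and without TCDD replicate 1 or 2.

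Hypoxia-responsive genes did not all differ in the same direction. *Bnip3*, a mitophagy receptor whose promoter is shown above, read 9.8, 9.84 and 9.79 with TCDD and 9.32, 9.06 and 8.92 with BaP, against 9.68 to 9.75 in naive cells (0.71 ± 0.08, adjusted p = 0.000172). *Ankrd37*, a small ankyrin-repeat protein, read 6.27, 6.69 and 6.31 with TCDD and 5.76, 5.73 and 5.53 with BaP (0.75 ± 0.12, 0.00322), with naive cells at 5.9 to 6.25, between the ligands. Of 25 measured genes of glycolysis and the hypoxia response, 4 passed the adjusted p higher with TCDD (0.885% of all genes did), these 2 with *Pfkl* (0.32, 0.0399) and the oxygen sensor *Egln1* (0.25, 0.0408). The growth factor *Vegfa* (-0.48, 0.00951) and the glucose transporter *Slc2a1* (-0.26, 0.0453) passed higher with BaP (0.781% of all genes). The median of the list was 0.09, and 5 of the 25 genes were below 0. *Ak4*, a mitochondrial adenylate kinase, differed by 0.66 ± 0.08 (0.00022).

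Measured against naive cells, most of the called genes passed the threshold with BaP alone. The comparisons with DMSO share the TCDD and BaP arrays with the direct comparison, so their values are placed side by side as a description. Against DMSO, TCDD called 73 genes higher (0.401%) and 16 lower (0.0879%), and BaP called 194 higher (1.07%) and 126 lower (0.693%). Of the 69 genes called between the ligands by any probe set, 43 were called against DMSO with BaP alone. Of these, 21 were raised and 22 lowered. For some of the 43 the TCDD mean also differed from the naive mean without a call, such as *Btg2* (0.52), *Osgin1* (0.51) and *Ror1* (-0.37). The lowest TCDD array of *Btg2* was level with its highest naive array. Others lay near 0 with TCDD, such as *Ehf* (-0.01) and *Nabp1* (0.01). The 4 raised by both ligands were *Cyp2s1*, *Bmf*, *Aldh3a1* and *Nqo1*, all higher with BaP. *Creb5* was called with TCDD alone, and 21 genes were called with neither, 8 of them higher with BaP and 13 higher with TCDD.

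Without the minimum change, 161 genes (0.885%) were higher with TCDD and 142 (0.781%) higher with BaP by their brightest probe sets. For all 161, the BaP mean lay below the naive mean (median -0.42), while the TCDD mean lay below it for 85 (median -0.01). For the 142, the BaP mean lay below the naive mean for 1 gene (median 0.45) and the TCDD mean for 76 (median -0.01). The TCDD means of these genes thus fell on both sides of the naive means in nearly equal numbers, and the BaP means fell on 1 side with a single exception.

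**Figure D4:**
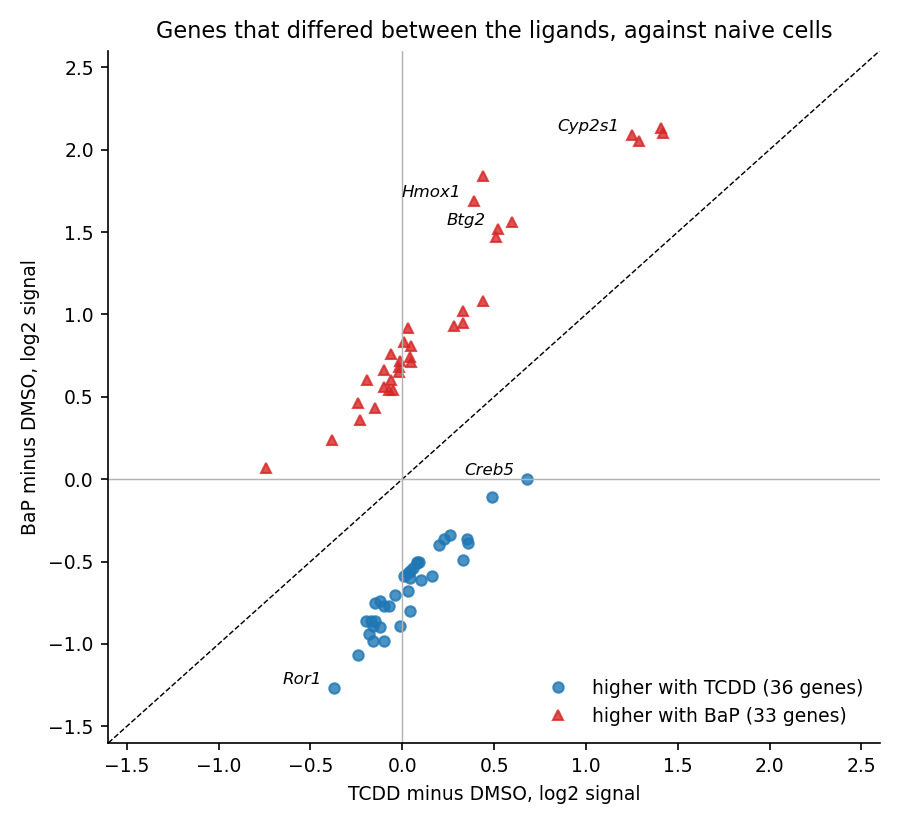
Change against naive cells with TCDD (x axis) and with BaP (y axis), both in log2 signal, for the 69 genes called between the ligands in wild-type cells, with equality as a dashed line; both axes share the naive arrays. Most points lie near 0 with TCDD and away from 0 with BaP, and the 4 genes that both ligands raised lie at the upper right.

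Gene span, the length from the first to the last base of a gene with its introns, differed between the directions. It was taken from RefSeq (GRCm38.p6) for 18031 genes, 99.1% of those measured, and divided into quintiles. Of the 25 genes higher with TCDD by their brightest probe sets, 17 (68%) lay in the longest quintile, above 64.2 kb, and their median span was 156 kb, against 20.3 kb for all genes. Among them *Foxp1* spans 597 kb, *Pard3* 549 kb, *Creb5* 413 kb, *Esr1* 394 kb and *Ror1* 349 kb. Of the 21 genes with a span that were higher with BaP, 0 lay in that quintile, and their median span was 13.3 kb. Counted by any probe set, the shares were 27 of 36 (75%) and 3 of 32 (9.38%).

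The same split held among genes past the adjusted p with no minimum change, since 116 of the 161 genes higher with TCDD lay in the longest quintile. They were 3.22% of that quintile, against 0.166% to 0.638% of the 4 others. The shift over all genes was small. The median difference was 0.038 in the longest quintile and between -0.001 and 0.007 in the others, and in *c*35 cells it lay between -0.003 and 0.013 in all 5. Among 20 bins, the longest, with a median span of 321 kb, had a median difference of 0.068 and held 12 of the 25 genes. Against naive cells, the median of the longest quintile was 0 with TCDD and -0.035 with BaP, and that of the shortest 0.026 and 0.025, so the longest genes were below the shortest with both ligands. With each gene read relative to its mean over the 6 ligand arrays of a line, the median of the longest minus that of the shortest genes was 0.044 ± 0.04 (SD, n = 3) in naive wild-type cells, 0.022 ± 0.017 after TCDD and -0.02 ± 0.015 after BaP. The naive wild-type arrays read 0.089, 0.014 and 0.03 and overlapped the TCDD arrays, at 0.01, 0.042 and 0.014. In *c*35 cells the longest minus the shortest was 0.038 ± 0.027 in naive cells, -0.008 ± 0.006 after TCDD and 0.008 ± 0.021 after BaP. The 3′ minus 5′ signal of the control gene Actb, a measure of RNA degradation, was 0.99 ± 0.24 (SD, n = 3) with TCDD and 1 ± 0.12 with BaP in wild-type cells. In naive wild-type cells it was 1.01 ± 0.32, with 1.38 on replicate 1, the array at 0.089 above. In *c*35 cells it was lower, at 0.34 ± 0.04 with TCDD and 0.39 ± 0.12 with BaP, so the lines differed in this measure. In wild-type cells, the median of the longest quintile minus that of the shortest was 0.031, also with the Actb measure as a covariate. Among genes above the third quartile of signal, that value was -0.007.

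**Figure D5:**
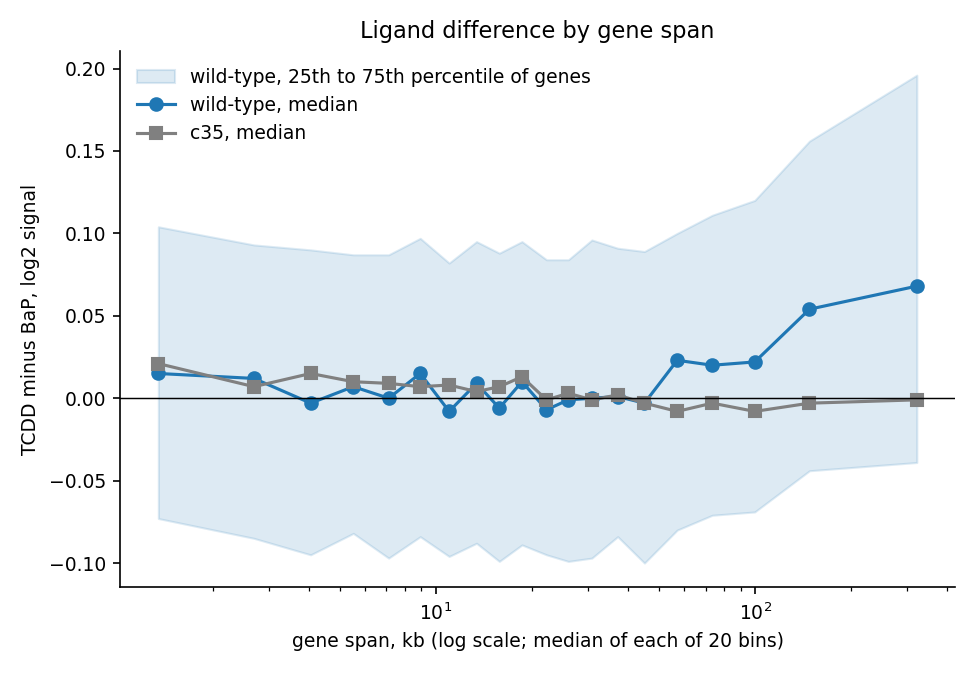
Median difference between the ligands (TCDD minus BaP, log2 signal, y axis) in 20 bins of genes ordered by span (x axis, kb, log scale), for wild-type cells (blue circles, with the 25th to 75th percentile of genes shaded) and *c*35 cells (grey squares). The wild-type medians rise to 0.054 and 0.068 in the longest 2 bins, while the *c*35 medians there are -0.003 and -0.001.

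The same contrast was read in *c*35 cells, a single derivative line, where loss of DNA binding by AHR and other differences between the lines cannot be told apart. For the 25 genes higher with TCDD and the 22 higher with BaP, the *c*35 differences ran from -0.45 to 0.25 with a median of 0.03 and from -0.18 to 0.22 with a median of -0.02. The wild-type difference exceeded the *c*35 difference in the same direction for all 25 and all 22, which the choice of these genes for their wild-type difference favours. The test of the difference between the lines, in the same limma fit, called 22 genes by any probe set, with TCDD minus BaP higher in wild-type cells for 9 (0.0495%) and lower for 13 (0.0715%). That count was 9 to 14 without any 1 of the wild-type ligand arrays or without *c*35 BaP replicate 3 or *c*35 TCDD replicate 1 or 3. *Hmox1* gave the largest value, at -1.44 ± 0.16 (adjusted p = 0.000309), since it read 8.92 to 9.04 with TCDD and 8.75 to 8.91 with BaP in *c*35 cells. *Cyp2s1* differed between the lines by -0.82 (0.00507) and *Foxp1* by 0.84 (0.0118). For *Sntb1*, the *c*35 signals were low with both ligands, at 3.91 to 4.33, so its between-line value of 1.06 (0.0198) compares a gene seen at 6.21 to 7.35 in wild-type cells with one of low signal in *c*35 cells. *Creb5* turned the other way in *c*35 cells, at 4.4, 4.35 and 4.18 with TCDD and 5.04, 4.62 and 4.64 with BaP (-0.45, interval -0.73 to -0.18, adjusted p = 1 in *c*35 cells), and the lines differed by 1.13 (0.0198).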

How the data were processed

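Total RNA was hybridized to Affymetrix mouse arrays. The authors deposited log2 signals which, per the submitters' processing notes, were made by RMA; no version is given in the sources used here. They were used without further normalization, for the 45037 of 45101 probe sets that remain without 64 Affymetrix control sets. Annotation gave 34945 probe sets 1 symbol, 932 several and 9160 none.

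limma 3.58.1 (R 4.3.3, data.table version 1.17.8) was run on all 18 arrays with 1 mean per group, an intensity trend and Benjamini-Hochberg adjustment over all probe sets within each comparison. A call needed an adjusted p below 0.05 and more than 1.5-fold, after the study's thresholds. Precision is limited by the number of arrays. The scripts were tested on simulated data. No 2 arrays were identical.

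Genes are shown by their brightest probe set on average. Named were the 15 largest called differences in each direction with groups that do not overlap, without unnamed clones, the 3 largest called members of each list, all AHR battery and partner genes, those the study names, and the 3 largest between lines in each direction; list members past the adjusted p are added. *Slc7a11* was chosen after its values were seen. The members and lists were chosen with earlier results of these data known.

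Alternatives were no trend, array weights, quantile normalization, median centring, a filter on dim probe sets, the mean of a gene's probe sets, fewer arrays, a replicate block, an Actb covariate, no minimum change, a test against 1.5-fold and leaving out each array. For gene span, the covariate, the block and the restriction to bright genes were added after seeing the data. Figures were drawn with matplotlib 3.10.9.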

Additional observations from a re-analysis of the deposited data

Results flagged for a closer look

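For 15 of the named genes, the difference between the ligands in wild-type cells differed from that in *c*35 cells by the limma test of the difference itself (adjusted p below 0.05 over all probe sets, more than 1.5-fold). Values are the wild-type difference (TCDD minus BaP, log2) minus the *c*35 difference, with 3 arrays in each of 4 groups.

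Of the genes higher with BaP in wild-type cells, *Hmox1* gave -1.44 (adjusted p = 0.000309), *Slc19a2* -0.82 (0.000431), *Cyp2s1* -0.82 (0.00507), *Osgin1* -0.78 (0.00914) and *Vasn* -0.88 (0.0265). *Mir22hg* gave -0.80 (0.038), *Mdm2* -0.62 (0.0402) and *Nqo1* -0.73 (0.0408).

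Of the genes higher with TCDD, *Foxp1* gave 0.84 (0.0118), *Sntb1* 1.06 (0.0198), *Creb5* 1.13 (0.0198) and *Bnip3* 0.70 (0.0254). *Ikzf2* gave 0.90 (0.0344), *Ror1* 0.83 (0.0371) and *Pard3* 0.64 (0.038). For *Sntb1* and *Creb5*, part of the value comes from *c*35 cells, where the mean signal was higher with BaP, although neither *c*35 difference was called. For *Sntb1* the *c*35 difference was -0.22 (95% interval -0.47 to 0.03), at low signals.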

How the results depend on the processing

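Reading a gene from the mean of all its probe sets gave 11 genes higher with TCDD, 20 higher with BaP and 20 changed against DMSO by BaP alone, in place of 36, 33 and 43. With no minimum change these were 211, 194 and 280, and in a test against 1.5-fold 0, 1 (*Hmox1*) and 1. Leaving out 1 array gave 20 to 51 genes higher with TCDD, the lowest without BaP replicate 2, and 27 to 41 higher with BaP. It gave 35 to 60 genes called against DMSO with BaP alone and 14 to 18 called list members (18 with all arrays).

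The count of genes that differed between the lines, 22, was the least stable, at 58 with array weights, 9 with no intensity trend, 0 in the test against 1.5-fold and 9 to 24 with 1 array left out (9 without *c*35 TCDD replicate 3, wild-type BaP replicate 3 or wild-type TCDD replicate 2). Every alternative gave 0 genes for *c*35 cells. With the replicate number as a block, the between-line count was 13, and 35 genes were higher with TCDD and 32 with BaP. Deviations of same-numbered TCDD and BaP arrays correlated at 0.205, -0.021 and -0.027, and those of differently numbered arrays at -0.178 to 0.201. With 3 arrays a group these values depend on one another, so they cannot show whether the numbers pair the samples.

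The longest minus the shortest quintile of genes, 0.031, was 0.05 with only probe sets at or above the median signal, -0.007 among genes above the third quartile of signal, and 0.022 to 0.039 with 1 array left out. None of the named genes reversed. The mean of all probe sets ended the call of 17 of 52 named genes (*Ankrd44*, *Arhgap24*, *Bmf*, *Creb5*, *Ehf*, *Esr1*, *Foxp1*, *Ikzf2*, *Lif*, *Mdm2*, *Orai2*, *Pard3*, *Ror1*, *Slc20a1*, *Sntb1*, *Tead4*, *Trp53inp1*), the test against 1.5-fold that of 35, no trend that of *Dnajb9*, *Dpm3* and *Nr3c2*, and quantile normalization and array weights that of 0. The causes were not tested. The number of arrays limits what can be seen: a difference that missed the threshold may still exist.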
